A study of Mus musculus with 2 samples.

Results

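The annexin and galectin genes were examined in the recipient's own CD8+ T cells, termed endogenous CD8+ T (en-T) cells, of melanoma-bearing mice under adoptive T-cell therapy with or without anti-CD4 antibody. The 10 members, chosen by gene symbol, were the annexins Anxa1, Anxa2, Anxa4, Anxa5, Anxa6 and Anxa7 and the galectins Lgals1, Lgals3, Lgals8 and Lgals9. They are 10 of 19505 named genes on the array, each with 1 probe set. Their Entrez gene identifiers are 16952 (Anxa1), 12306 (Anxa2), 11746 (Anxa4), 11747 (Anxa5), 11749 (Anxa6), 11750 (Anxa7), 16852 (Lgals1), 16854 (Lgals3), 56048 (Lgals8) and 16859 (Lgals9). The mice were C57BL/6 females of 6 to 8 weeks with intradermal B16F10 melanoma (200000 cells). Every mouse had cyclophosphamide (300 mg/kg) on day 3, which empties the lymphoid organs, then 2000000 Pmel-1 cells on day 5 with IL-2 (10000 IU) on 3 days. Pmel-1 cells are CD8+ T cells with a transgenic receptor for a melanoma antigen and carry the Thy1.1 marker. The CTXpre/CD4post group was also given 200 µg of the CD4 antibody GK1.5 on days 10, 17 and 24, and the CTXpre group was not. On day 25, CD8-positive, Thy1.1-negative cells were sorted from inguinal lymph nodes and spleen, and RNA from the pooled cells of 5 mice per group went onto 1 array. Each group therefore has n = 1, no difference given here has a replicate check, and no test or p-value was possible.

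Annexins are cytosolic proteins that bind acidic phospholipids when calcium rises, and they act in membrane repair, vesicle traffic and the coupling of membranes to actin. Galectins bind beta-galactoside sugars. They are made in the cytosol, leave the cell without a signal peptide, and crosslink glycoproteins on the surface of T cells. Some members of both families are known to increase when naive T cells turn into effector and memory cells, and several are abundant in macrophages.

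Levels are log2 values per probe set, and differences were taken as CTXpre/CD4post minus CTXpre, so that a value of 1 is a doubling. The background bound, the 95th percentile of 1452 probe sets for olfactory, vomeronasal and taste receptors, was 4.36 for CTXpre/CD4post and 4.35 for CTXpre. All 10 members lay above it on both arrays. The sort genes were high in both libraries, with levels of 11.72 in CTXpre/CD4post and 11.47 in CTXpre for Cd8a, and of 11.80 in CTXpre/CD4post and 11.70 in CTXpre for Cd8b1. Cd3e, a chain of the T-cell receptor complex, had a level of 11.62 in both. Cd4, the gene of the antibody's target, had a level of 5.98 in CTXpre/CD4post and 7.55 in CTXpre, both above the bound.

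The families divided between a few members with higher levels in CTXpre/CD4post en-T cells and a majority with similar levels. Lgals1 was 2.24-fold, Anxa2 1.83-fold and Lgals3 1.59-fold higher, and the other 7 members lay within 1.5-fold. Thus 3 of 10 members passed 1.5-fold upward and 0 downward. With 32 added to the linear values the count was 2, since Lgals3 then fell short at 0.58. For comparison, 12862 genes lay above the bound on 1 array or both. Of these, 3.08% passed the 1.5-fold line upward and 3.37% downward. At 2-fold, 1 member was higher, against 0.552% of all genes above the bound. A difference above 0 was seen in 6 members, and in 51.6% of all genes above the bound. The median difference was 0.18 over the 10 members and 0.01 over all genes above the bound. It was 0.44 over the 4 galectins and -0.01 over the 6 annexins. The members were put forward with earlier results of these arrays known, so these counts describe them and are not an independent finding.

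**Figure D1:**
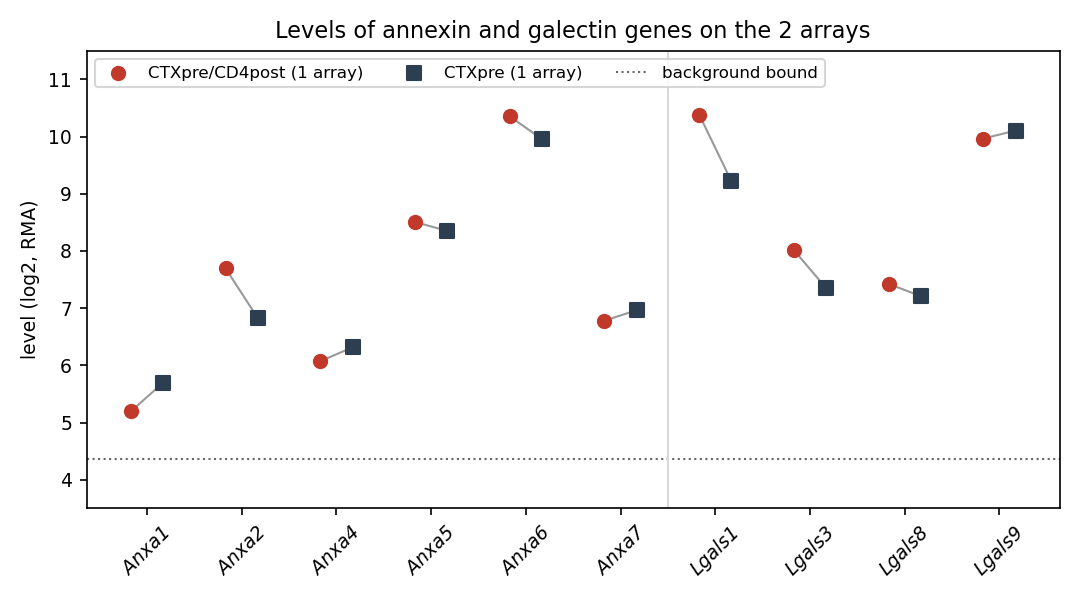
Level (log2) of each member on the CTXpre/CD4post array (red circles) and the CTXpre array (dark squares), 1 array each with RNA from the pooled cells of 5 mice; the dotted line is the background bound of 4.36. Lgals1, with 10.38 in CTXpre/CD4post against 9.22 in CTXpre, Anxa2 and Lgals3 show the steepest lines, and Anxa1 runs the opposite way, with 5.20 in CTXpre/CD4post against 5.70 in CTXpre.

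Lgals1 encodes galectin-1, a galectin with 1 sugar-binding domain that pairs into dimers, binds CD45 and CD43 on T cells and is induced by T-cell activation. Its level was 10.38 in CTXpre/CD4post and 9.22 in CTXpre, a difference of 1.16. On the linear scale this was 1337 units in CTXpre/CD4post against 596 in CTXpre. It was the only member past 2-fold and had the 51st highest difference of the 12862 genes. Of 844 genes with a mean level of at least 9, 2 had a higher difference, the integrin chain Itgb1 and the costimulatory receptor Icos. Lgals1 and Icos are among the genes that the study picked on these same arrays, so their direction is not independent of that choice.

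Lgals3 encodes galectin-3, which joins its sugar-binding domain to a tail that lets it form larger assemblies, and which is also a classical macrophage protein known as Mac-2. Its level was 8.02 in CTXpre/CD4post and 7.35 in CTXpre, a difference of 0.67. This lay just past the 1.5-fold line, which is a log2 difference of 0.58, and just past the upper end of the spread of the receptor probe sets. The central 95% of the differences of those 1452 probe sets, which measure mostly background, ran from -0.58 to 0.66. Lgals1, Anxa2 and Lgals3 lay above that range, and 0 members lay below it.

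The remaining galectins each carry 2 sugar-binding domains in 1 chain. Lgals8 encodes galectin-8, which marks damaged vesicles for autophagy, and had a level of 7.42 in CTXpre/CD4post and 7.21 in CTXpre. Its difference of 0.21 was under the robust SD of 0.29 of the receptor probe sets. Lgals9 encodes galectin-9, a proposed ligand of the inhibitory receptor TIM-3. It had a level of 9.96 in CTXpre/CD4post and 10.11 in CTXpre. That difference, -0.14, had the opposite sign to the other 3 galectins and was 1.10-fold in size.

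Anxa2 encodes annexin A2, which joins with S100A10 into a complex at the inner face of the plasma membrane. Its level was 7.70 in CTXpre/CD4post and 6.82 in CTXpre, a difference of 0.87, or 207 units in CTXpre/CD4post against 113 in CTXpre on the linear scale. This was the 119th highest difference of the 12862 genes, and that of Lgals3 was the 272nd. To show how far the higher members stood out, each was set beside genes of like level. These are the genes above the bound whose mean level lay within 0.5 of the member's own. The member itself is counted among them, here and below, so each share includes it. A difference at least as high was found in 0.482% of 415 such genes for Lgals1, in 0.495% of 2625 for Anxa2 and in 0.859% of 2213 for Lgals3. These shares describe the spread over genes on a single pair of arrays and do not stand in for replicates.

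Anxa6, the largest annexin, with a doubled core, came next. Its level was 10.35 in CTXpre/CD4post and 9.96 in CTXpre, a difference of 0.40. It was 1.32-fold higher, and 6.76% of 296 genes of like level had a difference at least as high. Anxa5, whose protein binds phosphatidylserine and is used to stain dying cells, had levels of 8.51 in CTXpre/CD4post and 8.35 in CTXpre. Its difference of 0.15 was smaller than the robust SD of 0.17 over 1425 genes of like level. By the same measure Lgals8, with 0.212, was slightly above the robust SD of 0.205 over its 2561 genes of like level. Of those, 15.2% had a difference at least as high.

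The other 3 annexins had differences below 0. Anxa1 encodes the anti-inflammatory annexin A1, which acts through formyl peptide receptors and is abundant in neutrophils and monocytes. Its level was 5.20 in CTXpre/CD4post and 5.70 in CTXpre, a difference of -0.50. This was 1.42-fold in size, the lowest of the 10 members and within the range of the receptor probe sets. Of 2959 genes of like level, 6.12% had a difference at least as low. Anxa4, best known from epithelia, had levels of 6.07 in CTXpre/CD4post and 6.32 in CTXpre. Anxa7, once called synexin for its part in fusing secretory granules, had levels of 6.78 in CTXpre/CD4post and 6.96 in CTXpre. Both were within the robust SD of the receptor probe sets.

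**Figure D2:**
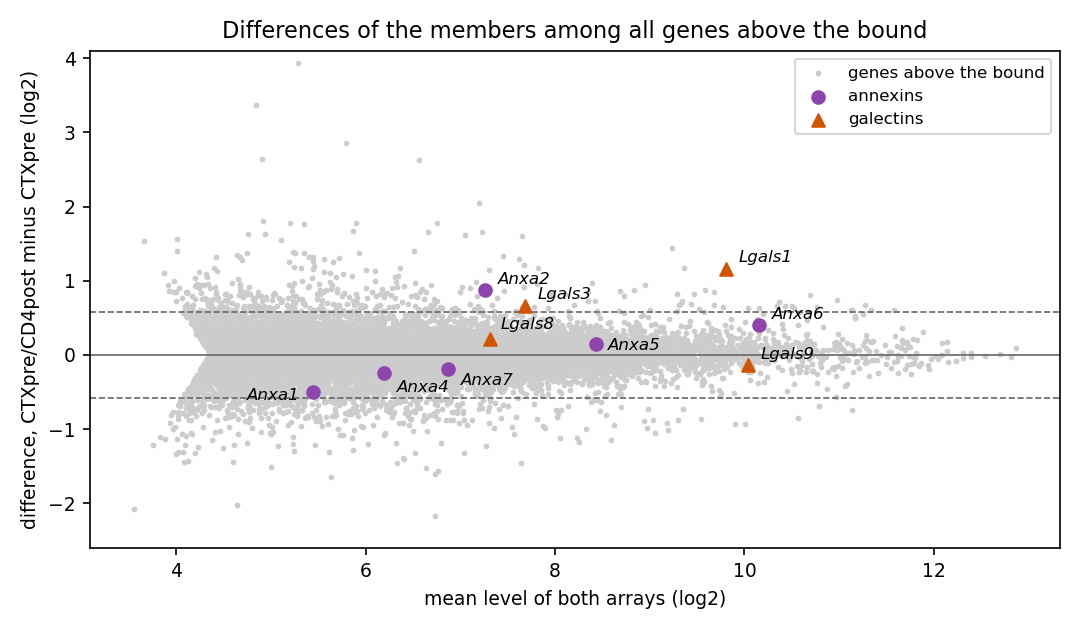
Difference (log2, CTXpre/CD4post minus CTXpre) against the mean level of both arrays (log2) for the 12862 genes above the bound (grey) and the members (annexins as circles, galectins as triangles), with dashed lines at 1.5-fold. Lgals1 stands at 1.16 at a level where few genes reach 1.5-fold, Anxa2 (0.87) and Lgals3 (0.67) lie over the upper line, and the other 7 members lie between the lines.

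The promoters of members with differences of opposite sign are shown so that their sequences stand beside the values. The RefSeq promoter table (GRCm38.p6) held 10 windows for 8 of the 10 members, Lgals1 and Anxa6 not among them. The 250 bases before the annotated start are printed for Anxa2 and Lgals3, both higher in CTXpre/CD4post, and for Anxa1, the lowest member. They lie at chr9:69453433-69453682 (plus strand), chr14:47373610-47373859 (plus strand) and chr19:20390672-20390921 (minus strand). Capitals mark matches, on either strand, to TATAAA, to GGGCGG (the GC box), to CCAAT or to TGANTCA (the AP-1 site).
Anxa2: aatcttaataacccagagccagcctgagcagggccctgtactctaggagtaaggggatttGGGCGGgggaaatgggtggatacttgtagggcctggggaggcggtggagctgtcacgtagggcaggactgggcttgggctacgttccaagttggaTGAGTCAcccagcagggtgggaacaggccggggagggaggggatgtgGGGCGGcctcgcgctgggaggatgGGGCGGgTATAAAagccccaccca
Lgals3: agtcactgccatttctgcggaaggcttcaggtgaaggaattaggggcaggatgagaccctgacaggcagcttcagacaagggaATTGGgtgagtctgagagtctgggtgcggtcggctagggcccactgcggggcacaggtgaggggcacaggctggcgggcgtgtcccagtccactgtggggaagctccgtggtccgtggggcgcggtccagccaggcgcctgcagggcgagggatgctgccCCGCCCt
Anxa1: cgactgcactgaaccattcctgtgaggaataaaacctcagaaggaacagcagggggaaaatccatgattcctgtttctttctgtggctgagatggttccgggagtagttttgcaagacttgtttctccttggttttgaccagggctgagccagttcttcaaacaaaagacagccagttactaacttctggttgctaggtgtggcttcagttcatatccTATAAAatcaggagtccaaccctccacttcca

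The Anxa2 window held 1 TATAAA, 3 GGGCGG and 1 TGANTCA, the last starting 95 bases before the start. The Lgals3 window held 1 GGGCGG and 1 CCAAT, both on the strand opposite to the one printed, and no TATAAA or TGANTCA. The Anxa1 window held only a TATAAA, 32 bases before the start. Of all 32851 windows in the table, 12.4% held TATAAA, 32.7% GGGCGG, 33.8% CCAAT and 6.75% TGANTCA. Anxa2 was the only one of the 8 members with a TGANTCA match in these windows. GGGCGG matched in Anxa2, Lgals3 and both windows of Anxa7, whose difference was -0.18, so matches were found in members with differences of both signs. A match is a description of the sequence and shows no binding.

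To place the members within their families, the other annexins and galectins on the array were examined. None was past 1.5-fold in either direction. All 6 other annexins were measured and 4 were above the bound. Anxa11, with levels of 8.47 in CTXpre/CD4post and 8.27 in CTXpre, was 1.15-fold higher, and Anxa8 had levels of 4.37 in CTXpre/CD4post and 4.93 in CTXpre, close to the bound. Of the 7 other galectin genes listed, 6 were measured, and 4 of these were above the bound, with differences from -0.04 for Grifin to 0.23 for Lgals7. Over the measured genes, the median difference was -0.05 for the other annexins and 0.01 for the other galectins. Over those above the bound alone, it was -0.18 for the other annexins, 3 of 4 being below 0, and 0.10 for the other galectins.

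Among genes of proteins known to bind annexins, some had larger differences than any of the annexins. Of 12 listed genes 9 were measured and 7 lay above the bound, of which 3 passed 1.5-fold upward and 1 downward. S100a10, the partner of annexin A2, had a level of 9.83 in CTXpre/CD4post and 9.21 in CTXpre and was 1.54-fold higher, beside 1.83-fold for Anxa2. S100a4 and S100a6, calcium-binding proteins that interact with annexin A2, were 6.18-fold and 3.15-fold higher. S100a4 had a level of 7.88 in CTXpre/CD4post and 5.25 in CTXpre, and S100a6 had 8.06 in CTXpre/CD4post and 6.41 in CTXpre. S100a11, the partner of annexin A1, had a level of 10.78 in CTXpre/CD4post and 10.51 in CTXpre, 1.20-fold higher, while Anxa1 had a difference of -0.50. The lower gene was Pdcd6, whose protein ALG-2 binds annexins A7 and A11, with 6.49 in CTXpre/CD4post and 7.10 in CTXpre. Sri, which encodes the annexin A7 partner sorcin, differed by 0.20. S100a4 is among the genes that the study picked on these arrays, so its direction is not independent of that choice.

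Of 10 glycoproteins known to bind galectins, all above the bound, 1 passed 1.5-fold upward and 1 downward. A difference above 0 was found in 8, beside 51.6% of all genes above the bound, and the median was 0.26. Itgb1, the beta1 integrin chain, had a level of 9.96 in CTXpre/CD4post and 8.52 in CTXpre and was 2.72-fold higher. The TIM-3 gene, Havcr2, had 6.85 in CTXpre/CD4post and 7.76 in CTXpre and was 1.89-fold lower, while Lgals9, which encodes its proposed ligand, differed by -0.14. Whether the Havcr2 signal came from the T cells or from other cells in the sort was not tested. Lag3, an inhibitory receptor that galectin-3 binds, had 6.83 in CTXpre/CD4post and 6.27 in CTXpre, short of 1.5-fold. The galectin-1 binders Ptprc (CD45), Spn (CD43) and Cd7, the last known as such in human cells, differed by 0.22, 0.30 and 0.48.

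Enzymes that build or cap the sugars galectins bind were nearly level. Of 10 measured, all above the bound on at least 1 array, 9 lay within 1.5-fold and the median difference was 0.08. Mgat5, which makes the branched N-glycans that galectin-3 prefers, had levels of 7.80 in CTXpre/CD4post and 7.71 in CTXpre. The exception was Gcnt1, which starts the branched core of O-glycans, with 5.75 in CTXpre/CD4post and 4.12 in CTXpre, where it was not above the bound. It was at least 2.64-fold higher, and it too is among the genes that the study picked.

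**Figure D3:**
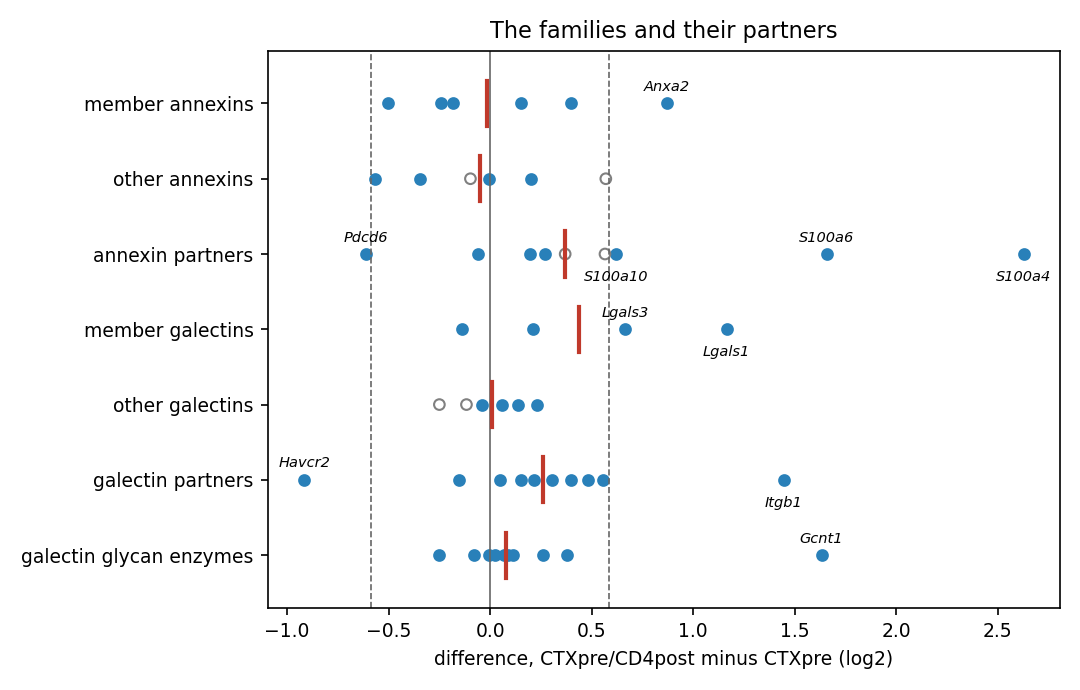
Difference (log2, CTXpre/CD4post minus CTXpre) of each measured gene in the member, family, partner and enzyme lists; filled points lie above the bound on at least 1 array, open points on neither, the red bar is the list median and the dashed lines are 1.5-fold. The other annexins and galectins sit between the lines, with medians of -0.05 and 0.01, while S100a4, S100a6, Itgb1 and Gcnt1 lie far to the right and Havcr2 far to the left.

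Several marker lists differed between the same libraries. In bulk RNA, fewer cells of a type and less RNA per cell cannot be told apart. Myeloid cells carry much galectin-3 and annexin A1, and 5 of 11 measured myeloid markers were at least 1.5-fold lower and 0 higher. Their median difference was -0.54. Lyz2 (lysozyme) had levels of 6.70 in CTXpre/CD4post and 7.35 in CTXpre, and Csf1r had 4.81 in CTXpre/CD4post and 5.49 in CTXpre, while C1qa was not above the bound on either array. The log2 of the summed myeloid levels was 12.01 in CTXpre/CD4post and 12.02 in CTXpre, a sum carried by Ly6c2, which T cells also express. The 10 dendritic-cell markers were all on the lower side, 7 past 1.5-fold, with a summed level of 9.80 in CTXpre/CD4post and 10.56 in CTXpre. The brightest of them, Ccr9, had levels of 8.06 in CTXpre/CD4post and 8.70 in CTXpre and was among those 7. Whether the sorted T cells themselves gave part of its signal was not tested. MHC class II genes passed 1.5-fold downward in 6 of 6 measured, with a summed level of 12.23 in CTXpre/CD4post and 13.01 in CTXpre. Anxa1, Anxa4, Anxa7 and Lgals9 had the same sign as the medians of these lists, and the other 6 members the opposite sign. The part of such cells in the members' values was not tested.

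T-cell state lists differed too. Of 12 effector or memory genes, 4 were at least 1.5-fold higher and 0 lower, with a median difference of 0.40, a summed level of 12.85 in CTXpre/CD4post and 12.44 in CTXpre, and a difference of 0.40 for Cd44, the adhesion receptor of antigen-experienced T cells. Of 11 measured proliferation genes, 9 were at least 1.5-fold higher and 0 lower, with a median of 0.77, a summed level of 11.35 in CTXpre/CD4post and 10.55 in CTXpre, and a difference of 0.94 for Mki67. All 8 measured naive T-cell genes had a difference below 0 and none reached 1.5-fold, with a median of -0.30 and a summed level of 12.85 in CTXpre/CD4post and 13.08 in CTXpre. Ifng and Gzmb of the effector list are among the genes that the study picked on these arrays. Lgals1, Anxa2, Lgals3, Anxa6, Lgals8 and Anxa5 had the same sign as the medians of the effector and proliferation lists, and the other 4 members the opposite sign. These 2 medians are opposite in sign to those of the myeloid, dendritic-cell and MHC class II lists. The split of the members is therefore the same one as above and adds nothing to it. The differences of Lgals8, Anxa5, Anxa4, Anxa7 and Lgals9 were also smaller in size than the robust SD of 0.29 of the receptor probe sets. With 1 array per group, a change in the share of effector, naive or dividing cells and a change within each cell cannot be told apart. The part of either in the members' values was not tested.

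Regulatory T cells are also known for high galectin-1. Of the 9 listed genes of CD4+ and regulatory T cells 8 were measured, with Foxp3 not among those analysed here, and they went both ways. In all, 1 passed 1.5-fold upward and 2 downward, with a summed level of 9.13 in CTXpre/CD4post and 9.24 in CTXpre. The median difference over the 8 was 0.29, with 5 above 0 and 3 below, so median and sum differ in direction. Cd4 itself was 2.97-fold lower. The upward gene was Cd40lg, which is among the genes that the study picked on these arrays. Il2ra was not above the bound on either array. All 11 genes of the list named handling stress, among them Fos and Jun, had a difference below 0, with a median of -0.45 and 4 past 1.5-fold. The name of the list does not give the cause, which was not tested. Housekeeping genes had a median of 0.06, and all 9 measured lay within 1.5-fold.

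**Figure D4:**
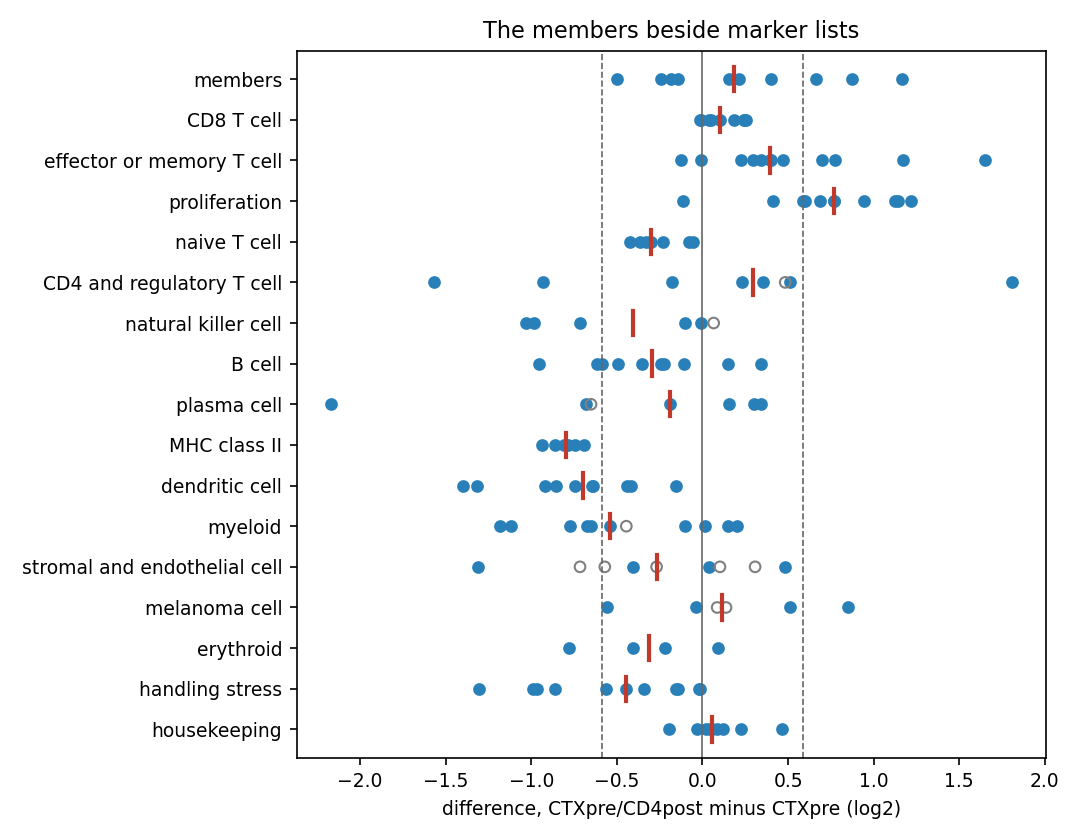
Difference (log2, CTXpre/CD4post minus CTXpre) of the members and of each measured gene of 16 marker lists; filled points lie above the bound on at least 1 array, open points on neither, the red bar is the list median and the dashed lines are 1.5-fold. The members (median 0.18) spread on both sides of 0, the proliferation list lies mostly to the right (median 0.77) and the MHC class II list wholly to the left (median -0.80).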

How the data were processed

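En-T cells were profiled on Affymetrix GeneChip Clariom S mouse arrays, 1 biotin-labelled sample per array. The deposited values are log2 levels per probe set, which the authors made by RMA, a robust averaging over probes. The submitters' processing notes name Affymetrix Power Tools for it. RMA subtracts background, quantile-normalizes and summarizes probes, so a shift common to most genes would be removed. For tool versions and the array's genome build, nothing is given in the sources used here. Levels ran from 1.51 to 12.9 in CTXpre/CD4post and from 1.49 to 12.8 in CTXpre, with medians of 5.15 on both, and 0 columns were left unused. The number of arrays limits the precision.

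Of 22206 probe sets, 19572 carried 1 symbol in the platform annotation, 0 several, and 2634 are unnamed here. The symbols of all 10 members matched RefSeq by Entrez identifier. For the 55 genes with several probe sets, the one with the highest mean of both arrays was kept. Calls were made by the size of the measured difference alone (1.5-fold and 2-fold) over genes above the bound on at least 1 array. The calling code was run on simulated data with known differences. That check set no requirement for calls at a true 1.5-fold or 2-fold difference, nor for false calls. A level not above the bound gave an "at least" fold against the bound. Alternatives were centring, quantile normalization, a lowess trend removed (fraction 0.3), 32 added to the linear values, the mean over probe sets, no filter, the 99th percentile as bound, levels set at the bound, 1.3-fold, and list means. Python 3.11.15, pandas 2.3.3 and statsmodels 0.14.6 were used.

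The members and lists were chosen with earlier results of these data known. Named genes were the 10 members, up to 4 genes past 1.5-fold from each family and partner list, the sort genes, and up to 2 first-listed markers per marker list. Anxa8, Anxa11, Grifin, Lgals7, S100a11, Sri, Lag3, Ptprc, Spn, Cd7, Mgat5, Icos, Ifng, Gzmb, Ly6c2, C1qa, Ccr9, Cd40lg and Il2ra were named after their values were seen. The comparison with genes of like level was added after the values were seen. The summed level of a list is the log2 of its summed linear values. The marker lists not described with the results were B cell, plasma cell, natural killer cell, stromal and endothelial, melanoma and erythroid markers.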

Additional observations from a re-analysis of the deposited data

How the results depend on the processing

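Under 4 ways of scaling the arrays (centring, quantile normalization, a lowess trend removed and 32 added), every member's difference kept its sign. Adding 32 to both linear values cannot change a sign. Centring shifted every difference by only 0.01, less in size than the smallest member difference, -0.14 for Lgals9. RMA had also quantile-normalized the arrays already. The kept signs are therefore no independent check. The mean over probe sets could move nothing, since each member has 1 probe set. Lgals1 ran from 1.11 to 1.16, Anxa2 from 0.72 to 0.87 and Lgals3 from 0.58 to 0.67. Anxa1 ran from -0.51 to -0.29, its size being smallest with 32 added. With 32 added to the linear values, which shrinks differences of dim probe sets, Lgals3 fell short of 1.5-fold and 2 members were at least 1.5-fold higher. The count was 3 under every other scaling and background setting. At 1.3-fold, Anxa6 joined the higher members, which made 4, and 1 member, Anxa1, was lower, against 0 at 1.5-fold. The median over the members ran from 0.16 to 0.18, and the mean was 0.24. The annexin median was below 0 under all 4, lowest at -0.03, while the annexin mean was 0.08, the opposite sign. The galectin median ran from 0.38 to 0.44. No replicate could be left out and no paired analysis was possible because each group has 1 array. Quantile normalization by the authors hides any shift shared by most genes.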

Other observations

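Marker lists of the other cell types that the sort could hold had these values. B-cell markers had a median difference of -0.30, with 3 of 10 measured at least 1.5-fold lower and 0 higher. Plasma cell markers had a median of -0.19 over 7 measured. By measured levels 2 were at least 1.5-fold lower and 0 higher. Once levels not above the bound were set at it, 1 was lower and 0 higher. The gene lower by both rules was Jchain, with 5.65 in CTXpre/CD4post and 7.82 in CTXpre. It was 4.50-fold lower, the lowest difference of the 12862 genes above the bound. Natural killer cell markers had a median of -0.41, with 3 of 6 measured at least 1.5-fold lower and 0 higher. Ncr1, the first listed of them, was above the bound on neither array, with 3.45 in CTXpre/CD4post and 3.38 in CTXpre. Erythroid markers had a median of -0.31 over 4 measured. Of 9 stromal and endothelial markers, 5 were above the bound on neither array. With levels set at the bound 0 passed 1.5-fold in either direction, and by measured levels 1 was lower. Of 6 melanoma markers, 2 were above the bound on neither array. With levels set at the bound 0 passed 1.5-fold, and by measured levels 1 was higher. The CD8 T-cell list had a median of 0.10, and all 9 measured genes lay within 1.5-fold.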
